A study of Mus musculus with 80 samples.

Results

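RNA of arcuate AgRP neurons of ad libitum fed mice was collected in this series by ribosome pull-down and by cell sorting, and the 2 kinds of library were compared gene by gene. The comparison took every library titled as AGRP RiboTag and ad libitum fed (n = 7) and every library titled as NPY-GFP and ad libitum fed (n = 9), 16 of the 80 libraries of the series. The RiboTag libraries came from mice of genotype AGRP-Cre;RiboTag, 3 collected early in the light phase, at ZT2, and 4 early in the dark phase, at ZT14 (ZT counts hours from lights on). The sorted libraries came from NPY::hrGFP mice, 6 collected at ZT2 and 3 at ZT14. All 16 are labelled as AgRP+ neurons of the arcuate nucleus (ARH), and no age, sex or strain is given in the labels. The labels number the collections but do not say whether each is a separate mouse or a pool, and p-values therefore reflect the spread among these libraries alone, which may be technical. Because each method was used with its own genotype, method, mouse line, the cells that the line marks and the tissue handling cannot be told apart, and RNA of whole arcuate tissue was not analysed here.

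AgRP neurons are GABA-releasing cells of the mediobasal hypothalamus that drive feeding and that make the peptides AgRP and NPY. In a RiboTag mouse, Cre recombinase switches the ribosomal protein gene Rpl22 to a version with an epitope tag, here in cells with Cre driven from Agrp, and an antibody then pulls tagged ribosomes and the mRNA on them out of a lysate of the whole tissue. In an NPY::hrGFP mouse, cells that use Npy control sequences make a green fluorescent protein, and fluorescence-activated sorting then collects whole cell bodies from a dissociated slice. A sorted cell body carries its nuclear RNA, while a pull-down takes ribosome-bound RNA from cell bodies and processes alike. Both kinds of RNA were amplified with the same SMART-seq v4 kit, per the labels' protocols.

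The values are normalised counts, that is the authors' counts per gene after division by each library's size factor, and recovered depth was 15.7 to 23.1 M reads in RiboTag and 8.16 to 16.5 M in the 8 sorted libraries where reads could be recovered. The first principal component held 73.6% of the variance and separated the methods. Genes above 0 numbered 16310 ± 467.1 (SD, n = 7) per RiboTag library and 15460 ± 1052 (SD, n = 9) per sorted library (two-sided exact permutation test within ZT, p = 0.066; smallest p possible 0.00034). Without the sorted ZT2 replicate 4, whose values follow another step and which had the most genes above 0 (18065), the same exact permutation test gave p = 0.00102. Among the RiboTag libraries 2 stood apart: ZT2 replicate 1 and ZT14 replicate 3 held summed astrocyte markers of 244600 and 161500 against 31820 to 47890 in the other 5. They are called the glia-rich libraries here. Among the named genes, leaving out both ended the calls of Ghsr, Bsn and Rpl7l1 and gave calls to Gad1 and Snap25, as given beside each gene.

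Between the methods, 5788 of 13923 tested genes were higher in RiboTag (41.6%) and 4018 were lower (28.9%) at an adjusted p of 0.05 (limma-trend with ZT as a term, Benjamini-Hochberg). Every RiboTag library lay above every sorted one for 23.4% of tested genes and below every sorted one for 14%. Differences are log2(normalised count + 1), RiboTag minus sorted, with the SE of the fit, and their median over all tested genes was 0.23. Within ZT2 alone 35.9% of genes were higher and 24.4% lower, and within ZT14 alone 33.8% and 21.8%. The method difference itself did not differ between the times for any gene past the threshold (0% by limma and 0 genes by edgeR, with 432 and 431 genes at an unadjusted p under 0.05). Differences followed transcript GC content (Spearman rho 0.40 across 13748 genes, which are not replicates) and more weakly length (rho 0.13). With length and GC content regressed out of each library, 2942 genes were higher and 6230 lower, so that 32.1% of called genes were higher against 59.0% in the main comparison. With each library's median restored after that regression, 5967 were higher and 2632 lower (69.4% higher), and the median difference was -0.36 in the former and 0.32 in the latter. These are called the regressed and the median-restored fits below. Group counts are to be read against these shares.

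AgRP-neuron genes were lower in RiboTag. Agrp, the melanocortin antagonist that names the cells, had 4840 to 20740 (median 12100) normalised counts in RiboTag and 32490 to 85580 (median 42480) in sorted libraries, with no overlap and a log2 difference of -2.05 ± 0.25 (adjusted p = 5.8e-07, limma). Npy, the co-released peptide, ran from 21440 to 103900 (median 58870) in RiboTag and 143100 to 383100 (median 197500) in sorted libraries, a difference of -1.93 ± 0.29 (adjusted p = 8.5e-06). Both were also lower with the glia-rich libraries left out, with differences of -1.75 ± 0.24 for Agrp and -1.58 ± 0.28 for Npy. The 14 AgRP markers all passed the filter, and 10 were lower and 1 higher, with a median of -0.65; without the glia-rich libraries 6 were lower and 1 higher. Acvr1c, an activin receptor, differed by -1.23 ± 0.22 and Npy2r, the presynaptic NPY receptor, had 1490 to 5489 in RiboTag and 6006 to 8500 in sorted libraries. Bsx, a homeobox factor needed for Npy and Agrp expression, was the marker that was higher (1.53 ± 0.39, adjusted p = 0.00157), though not in the regressed fit, where no marker was higher and 11 were lower. Lepr, the leptin receptor, ran from 131 to 1956 (median 234) in RiboTag and 197 to 967 (median 321) in sorted libraries, and its difference of -0.05 ± 0.51 did not pass (adjusted p = 0.941). The 14 markers together made up 0.256% to 1.15% of all normalised counts in RiboTag and 1.73% to 3.39% in sorted libraries. Most of that sum is Npy, with a median of 197500 in sorted libraries where the sum had a median of 280900. Npy control sequences also drive the fluorescent protein used for sorting. In bulk libraries such as these, fewer cells of a type and less RNA per cell cannot be told apart.

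**Figure D1:**
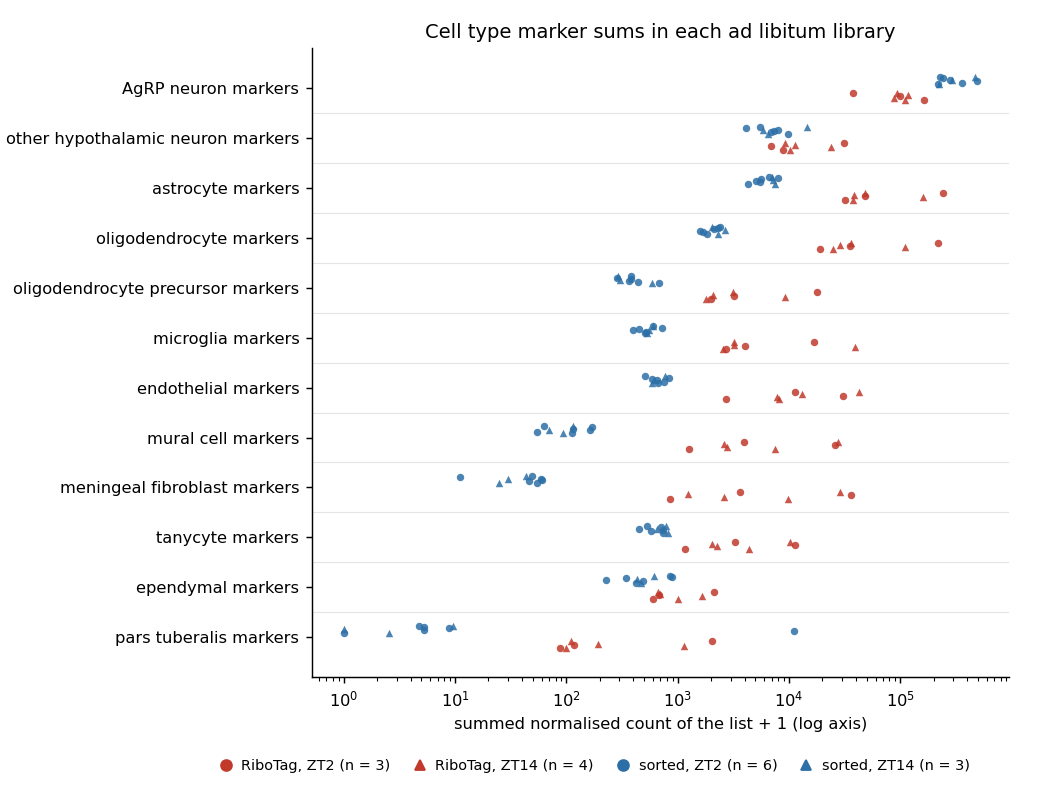
Summed normalised counts of the markers of each cell type (log axis, sum + 1), with 1 point per library, RiboTag in red and sorted in blue, circles for ZT2 and triangles for ZT14. AgRP markers were lower in every RiboTag library (at most 164100) than in every sorted one (at least 217000), and astrocyte, oligodendrocyte, microglial, endothelial and meningeal markers were higher in every RiboTag library.

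Summed glial and vascular markers were higher in every ad libitum RiboTag library than in any ad libitum library of sorted cells. Summed astrocyte markers ran from 31820 to 244600 in RiboTag and from 4303 to 7929 in sorted libraries, and oligodendrocyte markers from 18900 to 220700 and from 1592 to 2648. Microglial markers summed to 2541 to 39010 in RiboTag and 396.1 to 725.6 in sorted libraries, and endothelial markers to 2701 to 42910 and 506.5 to 844. Summed markers of meningeal fibroblasts ran from 855.5 to 36450 in RiboTag and from 10.15 to 59.49 in sorted libraries, and those of mural cells from 1254 to 27630 and from 53.33 to 170.8. No sum of a sorted library reached the lowest RiboTag library in these 6 cell types. Ependymal markers overlapped, with 599.3 to 2112 in RiboTag and 228.3 to 887.2 in sorted libraries. The sum of 84 glial and vascular markers was 0.367 to 13.7 times the sum of the 14 AgRP markers in RiboTag, with 13.7 in ZT2 replicate 1, and 0.0169 to 0.0526 times in sorted libraries. This ratio depends mostly on Npy, the largest part of the AgRP sum. Many of these markers passed the filter through RiboTag alone (11 of 16 astrocyte, 9 of 14 oligodendrocyte, 16 of 17 microglial and 9 of 12 endothelial genes), so that their counts of calls carry no weight, and detection is given instead. At least 10 normalised counts in every RiboTag library were held by 16 of 16 astrocyte, 14 of 14 oligodendrocyte, 17 of 17 microglial and 12 of 13 endothelial markers. In every sorted library that level was reached by 5, 5, 1 and 3 of them. Of all genes, 13617 to 14423 reached it per RiboTag library and 12601 to 13453 per sorted library. The share of all genes that reached it in every library of a method was not counted. RiboTag libraries were also fewer and mostly deeper.

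Gfap, the astrocyte intermediate filament, had 2241 to 12390 (median 7111) normalised counts in RiboTag and 0 to 22.4 (median 10.3) in sorted libraries. Slc1a3, the glial glutamate transporter, had 2427 to 25350 (median 4020) and 0 to 92.1 (median 0). Neither gene overlapped between the methods. Tyrobp, a microglial signalling adaptor, had 37 to 1017 (median 74.7) in RiboTag and was at 0 in all 9 sorted libraries. Csf1r, the microglial growth factor receptor, had 221 to 7623 (median 490.2) against 0 to 12.9 (median 0), with its highest values in the glia-rich libraries (7623 and 3031). Cldn5, a tight junction protein of brain endothelium, had 226 to 3189 (median 866) against 0 to 3.22 (median 0), and was high in RiboTag ZT14 replicate 1 (3189) and ZT2 replicate 2 (3114), not in the glia-rich pair. The same 2 libraries held the most Dcn, a matrix proteoglycan of meningeal fibroblasts, with 160.1 to 5782 (median 1775) against 0 to 3.22 (median 0). Ptgds, the prostaglandin D synthase of meninges, choroid plexus and oligodendrocytes, ran from 11730 to 386500 (median 74350) in RiboTag and 0 to 99.6 (median 0) in sorted libraries and had the largest positive difference of all tested genes (15.10 ± 0.89). So glial and meningeal markers were highest in different RiboTag libraries, and no RiboTag library was without either.

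Genes of neighbouring neurons were likewise detected more widely in RiboTag. Of 24 markers of other hypothalamic neurons, 20 reached 10 normalised counts in every RiboTag library and 5 in every sorted library. As for glial markers, the same share over all genes was not counted. Avp, vasopressin, had 696 to 9285 (median 1038) in RiboTag and 0 to 4.29 (median 0) in sorted libraries, where 7 of 9 were at 0. Slc17a6, the vesicular glutamate transporter that marks excitatory neurons, had 430.1 to 3185 (median 646) and 13.2 to 98.1 (median 26.2), a difference of 4.73 ± 0.43 that was 4.15 ± 0.41 without the glia-rich libraries. Pmch, the melanin-concentrating hormone precursor of the lateral hypothalamus, had 187 to 1870 (median 359) and 0 to 2.49 (median 0). Sst, somatostatin, went the other way, with 2437 to 5277 (median 4004) in RiboTag and 3256 to 13500 (median 6038) in sorted libraries (-0.86 ± 0.23, adjusted p = 0.00209). Pomc, the precursor of the opposing arcuate neurons, had 224 to 1215 (median 330.3) and 197 to 432 (median 295), and its difference of 0.61 ± 0.34 did not pass (adjusted p = 0.112). The sum over the 24 markers overlapped between the methods (6845 to 31510 in RiboTag and 4097 to 14530 in sorted libraries) and was highest in the glia-rich pair. One sorted library, ZT2 replicate 5, held Cga, the pituitary glycoprotein hormone subunit, at 10920 normalised counts, while all pars tuberalis markers together reached at most 8.55 in the other sorted libraries.

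Neuronal mRNAs were split between the methods. Gad1, a GABA-making enzyme, had 5498 to 9579 (median 7684) in RiboTag and 4882 to 7424 (median 6181) in sorted libraries (0.29 ± 0.14, adjusted p = 0.0663), -0.45 in the regressed fit and 0.46 (adjusted p = 0.00477) without the glia-rich libraries. Among 4 genes of GABA synthesis and transport 2 were higher and 0 lower (median 0.45), and 1 was higher by edgeR. Their sum did not overlap between the methods, with 17400 to 21650 in RiboTag and 9733 to 16030 in sorted libraries. Of 21 pan-neuronal genes 12 were higher and 4 lower with a median of 0.64, which turned to -0.32 in the regressed fit (6 higher and 9 lower), where the median of all genes was -0.36. Snap25, a membrane fusion protein of synapses, had 9944 to 23280 (median 13830) and 13540 to 24840 (median 19920) and did not pass (-0.37 ± 0.17, adjusted p = 0.057; 0.59 in the median-restored fit), but was called lower without the glia-rich libraries (-0.57, adjusted p = 0.00635). Nefl, the light neurofilament of large axons, had 1129 to 4442 (median 1406) and 86.5 to 166 (median 129), a difference of 3.90 ± 0.25 (adjusted p = 1.6e-10) with no overlap. Its highest RiboTag values, 4442 and 2551, were those of the glia-rich libraries. Gap43, a growth cone protein, was lower (-0.94 ± 0.15), as was the RNA-binding protein gene Elavl4 (-0.88 ± 0.15), although Elavl4 turned to 0.03 in the median-restored fit.

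**Figure D2:**
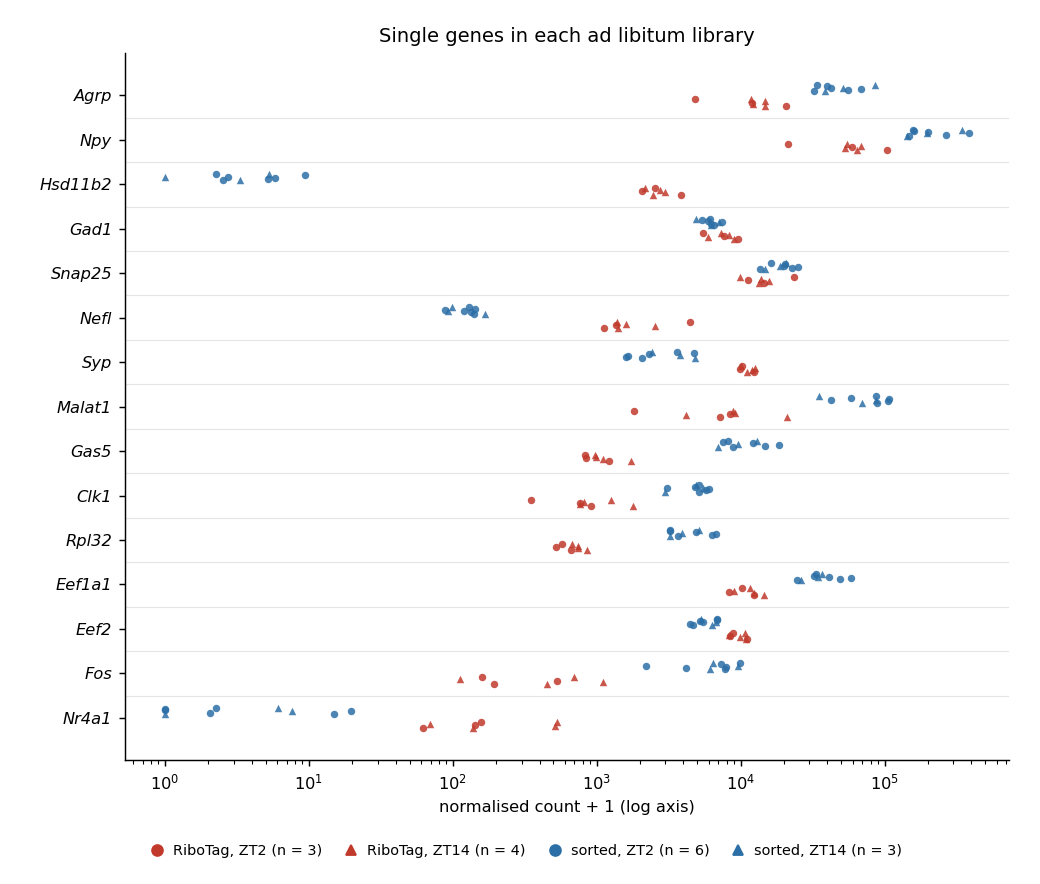
Normalised counts (log axis, value + 1) of 15 genes, with 1 point for each of the 16 libraries, RiboTag in red and sorted in blue, circles for ZT2 and triangles for ZT14. Hsd11b2 was added after its values were seen. Agrp, Npy, Malat1, Gas5, Clk1, Rpl32, Eef1a1 and Fos were lower in every RiboTag library, while Nefl, Syp, Hsd11b2 and Nr4a1 were higher in every one.

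Synaptic vesicle genes showed the same split by gene. Of 30 genes of vesicle release, 15 were higher and 9 lower (median 0.56, and -0.17 in the regressed fit, with 10 higher and 13 lower). Syp, synaptophysin of the vesicle membrane, had 9876 to 12560 (median 11110) in RiboTag and 1590 to 4799 (median 2434) in sorted libraries, a difference of 1.93 ± 0.21 (adjusted p = 1.5e-07). Sv2a, a vesicle glycoprotein, had 5506 to 7772 (median 6201) and 1592 to 2344 (median 1661), a difference of 1.89 ± 0.11. Both genes varied little among RiboTag libraries, with the glia-rich pair inside the range of the other 5. Large scaffold genes of the release site were lower: Pclo, piccolo, had 674 to 888 (median 818) against 2187 to 4431 (median 2630), a difference of -1.88 ± 0.16 (adjusted p = 5.6e-09), and Bsn, bassoon, differed by -0.60 ± 0.21, but did not pass without the glia-rich libraries (-0.46, adjusted p = 0.081). Among 57 potassium channel genes 29 were higher and 11 lower with a median of 1.08 (14 and 18 in the regressed fit, median 0.08), but 9 passed the filter through RiboTag alone. The largest differences were those of Kcnj16 (8.29) and Kcnj10 (6.84), inward rectifiers known from astrocytes, and of Kcna1 (7.08), a channel of axons.

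Messages known from dendrites were mostly higher in RiboTag by count of genes, except in the regressed fit, but their sum was lower. Those known from axons had no common direction. Of 17 dendrite-localised mRNAs, chosen from textbook knowledge of hippocampal neurons, 12 were higher and 2 lower with a median of 1.28, which turned to -0.14 in the regressed fit (5 higher and 7 lower). Among the 17, 2 passed the filter through RiboTag alone. The sum over the 17, Eef1a1 included, was lower without overlap (26560 to 35980 in RiboTag and 39530 to 69630 in sorted libraries). Camk2a, the calcium-dependent kinase of postsynaptic densities, had 1948 to 3024 (median 2536) in RiboTag and 298 to 1334 (median 562) in sorted libraries (2.06 ± 0.24, adjusted p = 2.7e-07). Dlg4, the scaffold PSD-95, differed by 1.95 ± 0.26. Bdnf, a neurotrophin, had 29.9 to 302 (median 63.1) in RiboTag and was at 0 in 8 of 9 sorted libraries. The 2 lower members were Camk2n1, an inhibitor of that kinase (-1.42 ± 0.23), and Eef1a1, the elongation factor (-1.70 ± 0.18). Of 15 axon-localised mRNAs 7 were higher and 6 lower, with a median of 0.07 that was below 0 under 3 of the scalings tried (-0.05 with equal totals, -0.03 with median-of-ratios scaling and -0.63 in the regressed fit). Nrn1, a membrane-anchored neurite factor, was at the top (5.80) and Cox4i1, a subunit of mitochondrial complex IV, at the bottom (-1.07). Glial and other neuronal markers were higher in the same libraries, and their part in these differences was not tested.

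Some RNAs that stay in the nucleus were lower in RiboTag and others higher. Malat1, an abundant noncoding RNA of nuclear speckles, had 1813 to 21110 (median 8490) normalised counts in RiboTag and 34710 to 106900 (median 87340) in sorted libraries, with no overlap and a difference of -3.40 ± 0.37 (adjusted p = 1.5e-07), or -2.82 without the glia-rich libraries. Kcnq1ot1, an imprinted antisense RNA, differed by -3.03 ± 0.43 and Snhg11, a neuronal host of small nucleolar RNA, by -2.81 ± 0.34, with 1547 to 16100 in RiboTag against 26850 to 77880 in sorted libraries. Of 11 nuclear-retained long noncoding RNAs 6 were lower and 2 higher with a median of -0.68, which turned to 0.37 in the median-restored fit (3 lower and 3 higher) and was -0.31 in the regressed fit (3 lower and 1 higher). Without the glia-rich libraries 4 were lower and 3 higher. Kcnq1ot1 turned to 0.37 in the median-restored fit, and the strand setting of the authors' counting is not given in the sources used here, so that reads of an antisense RNA and of the gene it overlaps cannot be told apart. Neat1, the RNA of paraspeckles, was higher in RiboTag, with 82.2 to 506 (median 337) against 11.5 to 95.5 (median 26.1), a difference of 3.14 ± 0.50. Peg13, an imprinted brain RNA, was higher too (1.35 ± 0.13). Meg3, an imprinted noncoding RNA, had 878 to 17460 (median 4108) and 2044 to 11170 (median 3657) and did not pass (0.04 ± 0.44, adjusted p = 0.944). Among all 385 tested long noncoding genes 57.9% were lower and 9.87% higher, against 27.6% and 43.0% of 13265 protein-coding genes.

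Protein-coding transcripts that are held in the nucleus with unspliced introns were mostly lower as well. Clk1, a kinase of splicing factors, had 349 to 1776 (median 811) in RiboTag and 2977 to 5999 (median 5103) in sorted libraries, a difference of -2.51 ± 0.25 (adjusted p = 3.5e-08) and the groups did not overlap. Its relative Clk4 differed by -1.98 ± 0.14, Tia1, a splicing and translation regulator, by -1.78 ± 0.20, and Luc7l3, a spliceosome-associated protein, by -1.97 ± 0.22. Of 17 such genes 12 were lower and 3 higher (median -0.72), with 12 and 2 in the regressed fit and 6 and 5 in the median-restored fit. The higher ones included Slc7a2, an amino acid transporter (6.10), and Luc7l (0.65, but -0.06 in the regressed fit). Of 10 small nucleolar, spliceosomal and Cajal body RNAs 8 were lower and 0 higher by limma (median -2.1), but 3 were lower and 1 higher in the regressed fit (median 0.29), and 0 lower and 4 higher in the median-restored fit (median 0.96). The median of 6 microRNA host or precursor genes likewise moved from -1.91 to 0.21 and 0.89 over the 5 with a length. Rpph1, the RNA of ribonuclease P, differed by -4.25 ± 0.52. Rn45s, the ribosomal RNA precursor, took up 0.731% ± 0.372 of counts in RiboTag (SD, n = 7) and 2.81% ± 1.36 in sorted libraries (SD, n = 9; two-sided exact permutation test within ZT, p = 0.00204).

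**Figure D3:**
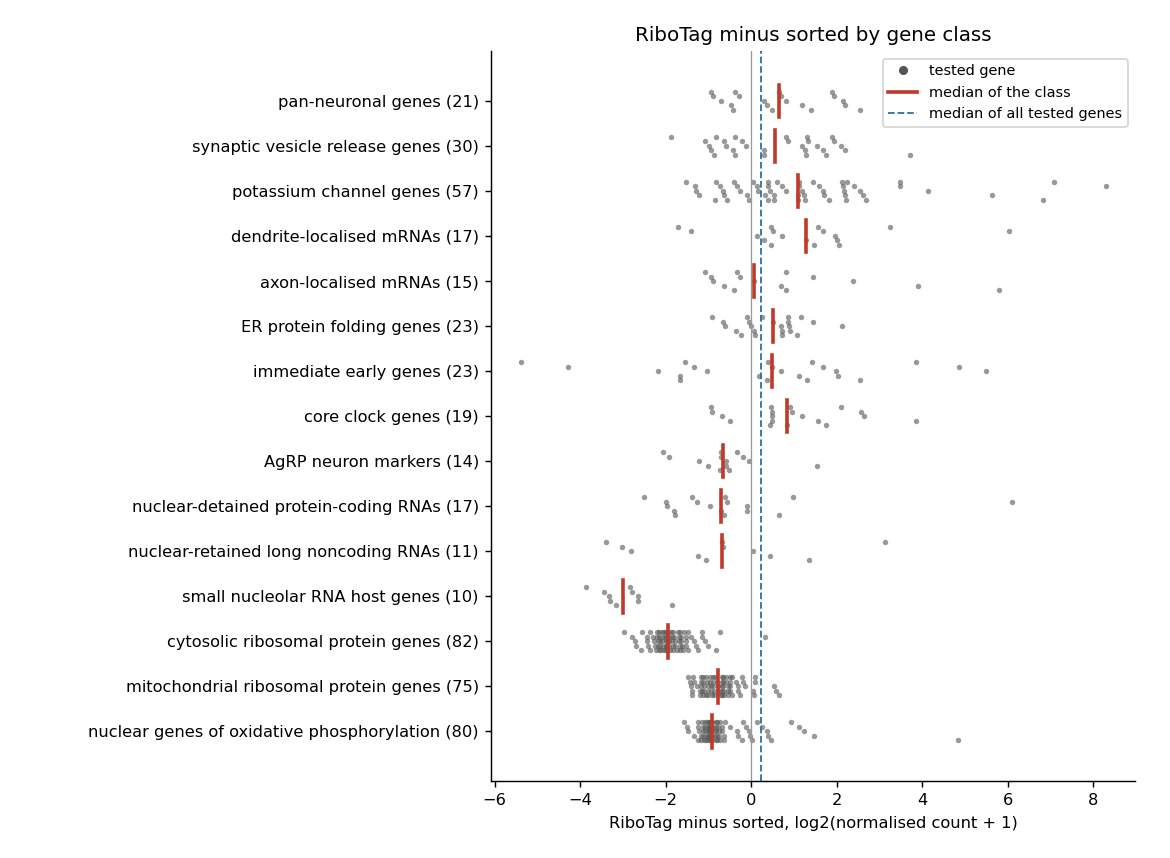
RiboTag minus sorted difference, log2(normalised count + 1), of each tested gene of 15 classes, with the class median in red and the median of all tested genes (0.23) as a dashed line. The small nucleolar RNA host genes and the cytosolic ribosomal protein genes lie almost wholly below 0, while the neuronal classes spread to both sides.

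The introns of small nucleolar RNA host genes release RNAs that guide ribosomal RNA modification, and their spliced exons are noncoding. All 10 were lower in RiboTag with no overlap between the methods, from -1.85 for Snhg3 to -3.85 for Snhg8, with a median of -3.0, against 28.9% of all tested genes lower and 14% without overlap. Gas5, the best studied member, had 830.5 to 1720 (median 989.6) in RiboTag and 6975 to 18510 (median 9601) in sorted libraries, a difference of -3.31 ± 0.21 (adjusted p = 1.5e-10). Snhg8 had 15.4 to 37.2 (median 21.2) and 199 to 566 (median 282), and Snhg1 had 29.3 to 80.5 (median 58) and 285 to 700.5 (median 346). Each RiboTag library, glia-rich or not, was below every sorted library for these genes. With a length on record, 7 of 8 were lower in the regressed fit, and 6 were lower and 1, Snhg3, higher in the median-restored fit (0.56).

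The cytosolic ribosomal protein genes were lower as well. Of 82 tested, 81 were lower and 78 did not overlap between the methods, with a median of -1.94, and 80 were lower in the regressed and 74 in the median-restored fit. Rpl32, a protein of the large subunit, had 521 to 851 (median 667) normalised counts in RiboTag and 3209 to 6780 (median 3934) in sorted libraries, a difference of -2.71 ± 0.18 (adjusted p = 2.3e-10). Rps19, of the small subunit, had 514 to 1185 (median 884) and 4699 to 13600 (median 5815), a difference of -2.97 ± 0.23, the largest difference of the class. Rpl7l1, a nucleolar relative of a ribosomal protein, was the member that was higher (0.32 ± 0.13, adjusted p = 0.0343), but -0.31 in the regressed fit and not past the test without the glia-rich libraries (0.28, adjusted p = 0.108). Rpl22, the gene whose product carries the tag in RiboTag mice, had 230.1 to 380.2 (median 321) and 479 to 1256 (median 590.5), a difference of -1.24 ± 0.21, lower by less than the class median. Counts of these genes are uncertain where the authors' counting could place reads on one of their many processed pseudogenes; the 76 tested pseudogenes were lower in 56.6% and higher in 2.63%. Other parts of the translation machinery were lower as well: 11 of 16 elongation and related genes were lower and 3 higher. Eef1a1, the factor that brings aminoacyl-tRNA to the ribosome, was lower, with 8336 to 14530 (median 11680) in RiboTag against 24590 to 58630 (median 34670) in sorted libraries (adjusted p = 1.1e-07). Eef2, the translocation factor, went the other way with 8329 to 11080 (median 9960) against 4407 to 6887 (median 5500), a difference of 0.74 ± 0.13 that turned to -0.96 in the regressed and -0.28 in the median-restored fit.

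Many of these transcripts begin with a run of pyrimidines at the cap, the terminal oligopyrimidine (TOP) sequence through which their translation is regulated. Shown are 10 transcript starts of ribosomal protein genes, small nucleolar RNA hosts and elongation factors, chosen after the values were seen. In the window, 8 hold a run of at least 6 bases and 2 do not. Where a gene has several starts, the start with the longest run was taken, here and in the shares below. A run in the window need not lie at the cap: that of Snhg1 begins downstream of the start. The windows are 15 bases before and 15 bases from the RefSeq transcript start on, on the gene's own strand of GRCm38.p6, 5′ to 3′, with the longest run of C and T in capitals.
Rpl35a: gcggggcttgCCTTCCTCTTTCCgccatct
Rps18: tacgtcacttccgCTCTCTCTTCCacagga
Rpl14: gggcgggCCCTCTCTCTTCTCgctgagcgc
Eef1a1: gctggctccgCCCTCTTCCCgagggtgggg
Snhg1: gttgttcttgtcggcctcaTTTTTCCTTgt
Snhg8: gcaccgttcagaagTCTCTTTggctgcgat
Snhg12: ggccgttctcagTCCTTTCTCgcttcatcc
Gas5: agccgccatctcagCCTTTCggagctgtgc
Eef2: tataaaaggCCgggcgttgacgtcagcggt
Rpl7l1: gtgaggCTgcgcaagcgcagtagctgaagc
The windows are at chr16:33056467-33056496 on the plus strand for Rpl35a, chr17:33955651-33955680 on the minus strand for Rps18, chr9:120571502-120571531 on the plus strand for Rpl14 and chr9:78481710-78481739 on the minus strand for Eef1a1. Those of the noncoding hosts are at chr19:8723472-8723501 (plus) for Snhg1, chr3:123508322-123508351 (minus) for Snhg8, chr4:132308663-132308692 (plus) for Snhg12 and chr1:161035151-161035180 (plus) for Gas5. Eef2 at chr10:81176616-81176645 (plus) and Rpl7l1 at chr17:46782642-46782671 (minus) have runs of 2 bases and were higher in RiboTag in the main comparison, but a short run did not go with a higher value in general. Eif4b, an initiation factor gene with a run of 7, was higher as well (0.86, but -0.25 in the regressed fit), and Rpl9 and Rpl37a, each with a run of 4, were lower by more than the class median (-2.57 and -2.44). The RiboTag minus sorted differences of the members not yet given were -2.02 for Rpl35a, -2.15 for Rps18, -2.54 for Rpl14 and -2.78 for Snhg12. A run of at least 6 bases, C or T in any order, on this strand was found in 38 of 59 ribosomal protein genes with a RefSeq start (64.4%) and in 7 of 8 small nucleolar RNA hosts (87.5%), against 3291 of 9871 tested genes (33.3%) and 8833 of 27025 RefSeq genes (32.7%). Over all tested genes the median difference was 0.29 with a run and 0.23 without, and among ribosomal protein genes -1.93 and -1.82. A match is a property of these letters on either side of the start and does not show a TOP sequence at the cap. No match says only that the run is not in this window.

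Housekeeping messages of other kinds were mostly lower too in the main and regressed fits, but not all in the median-restored fit. Of 75 mitochondrial ribosomal protein genes 62 were lower and 2 higher (median -0.78), with 37 lower and 9 higher in the median-restored fit. Of 80 nuclear genes of oxidative phosphorylation 62 were lower and 7 higher with a median of -0.91, which turned to 0.06 in the median-restored fit (23 lower and 32 higher). Ndufa6, a small complex I subunit, had 1651 to 2211 (median 2042) in RiboTag and 3746 to 9115 (median 5106) in sorted libraries, a difference of -1.47 ± 0.17 with no overlap. Of 37 proteasome subunit genes 24 were lower and 7 higher with a median of -0.50, which turned to 0.12 in the median-restored fit (6 lower and 15 higher). Of 31 genes of protein translocation into the endoplasmic reticulum 21 were lower and 8 higher (median -0.72), with 11 lower and 10 higher in the median-restored fit. Among tested transcripts, the shortest 20% (up to 2002.4 bases) had a median difference of -0.41 and the longest 20% (from 5379 bases) 0.17.

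Activity-dependent genes were split in a gene-specific way. Fos, a transcription factor of the AP-1 family and the usual mark of recent activity, had 111 to 1108 (median 448) normalised counts in RiboTag and 2179 to 9934 (median 7338) in sorted libraries, a difference of -4.30 ± 0.40 (adjusted p = 2.1e-08). Its relative Fosb had 0 to 21 (median 4.07) and 71.8 to 374 (median 223), a difference of -5.39 ± 0.58, the lowest of the 15 named lower genes. Neither gene overlapped between the methods. Egr1, a zinc finger factor, was lower by less (-1.54 ± 0.38, adjusted p = 0.00122) and overlapped. Nr4a1, an orphan nuclear receptor induced by activity, was in contrast higher in every RiboTag library than in every sorted one. It had 61.3 to 530.1 (median 142) against 0 to 18.8 (median 1.24), a difference of 5.49 ± 0.71. Its relative Nr4a2 differed by 4.86 ± 0.75 and Arc, a synaptic capsid-like protein, by 1.67 ± 0.45, although Arc turned to -0.08 in the regressed fit. Over 23 tested immediate early genes 9 were higher and 7 lower with a median of 0.48 (-0.41 in the regressed fit). Among them 5, Nr4a1 included, passed the filter through RiboTag alone. Of 15 heat shock genes 6 were higher and 6 lower (median -0.19), a split that moved with the scaling. The counts were 2 higher and 7 lower with equal totals, 2 and 6 with median-of-ratios scaling, 3 and 7 with edgeR, 2 and 9 in the regressed fit, and 7 and 2 in the median-restored fit. Hspa1a, the inducible Hsp70 chaperone, had 257 to 1684 (median 499) and 309 to 971 (median 575) and did not pass (-0.31 ± 0.28, adjusted p = 0.333).

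Chaperones of the endoplasmic reticulum, where secreted peptides fold, were higher for 12 of 23 genes and lower for 3, with a median of 0.51 that turned to -0.16 in the regressed fit (7 higher and 10 lower). Hyou1, a large chaperone of this compartment, had 1177 to 2077 (median 1926) in RiboTag and 216 to 705 (median 401) in sorted libraries (2.11 ± 0.21, adjusted p = 4.2e-08), and Hspa5, the chaperone BiP, differed by 0.73 ± 0.14. Manf, a secreted stress factor, was lower (-0.61 ± 0.14). Of 15 granins and peptide-processing genes 5 were higher and 7 lower. Vgf, a secretory granule protein, had 298 to 782 (median 657) and 27.1 to 185 (median 84.2), a difference of 2.74 ± 0.35, and Cpe, the carboxypeptidase that trims peptide hormones, had 18210 to 81770 (median 27520) and 2813 to 10610 (median 7333), a difference of 2.43 ± 0.30, with its highest values in the glia-rich pair. Scg5, the chaperone of prohormone convertase 2, was lower, with 4351 to 5941 (median 4990) against 9083 to 17820 (median 12960), a difference of -1.39 ± 0.15.

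Clock genes, the subject of the series, also differed by method. Of 19 core clock genes 13 were higher and 1 lower in RiboTag with a median of 0.84, which turned to -0.02 in the regressed fit (6 higher and 8 lower, with -0.36 for all genes). Tef, an output factor of the PAR bZIP family, had 3229 to 4688 (median 4118) normalised counts in RiboTag and 524 to 1026 (median 619) in sorted libraries, a difference of 2.63 ± 0.14 (adjusted p = 2.5e-11) with no overlap. Cry1, a repressor of the loop, had 209 to 799 (median 549) and 21.6 to 275 (median 66.4), a difference of 2.56 ± 0.31, and the groups overlapped. Per2, a repressor with a daily peak, differed by 1.57 ± 0.28, and Per3 was the lower member (-0.91 ± 0.26, adjusted p = 0.00391). Arntl, the activator BMAL1, was higher by 0.46 ± 0.14 (adjusted p = 0.00535), but -0.43 in the regressed fit. No interaction with ZT passed for these or any other genes. Of 17 genes of leptin, ghrelin and insulin signalling 6 were higher and 5 lower, among them Igf1r, the growth factor receptor (2.58), and Ghsr, the ghrelin receptor (-0.73, adjusted p = 0.0216), which did not pass without the glia-rich libraries (-0.32, adjusted p = 0.173).

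The 4 tested genes of the Y chromosome were present in all 16 libraries and lower in RiboTag. Eif2s3y, a translation initiation subunit, had 216 to 403 (median 241) and 629 to 1411 (median 1136), a difference of -2.02 ± 0.19 (adjusted p = 1.9e-08), and Uty, a histone demethylase relative, differed by -1.49 ± 0.21. Ddx3y, a helicase, differed by -0.78 ± 0.17 but turned to 0.38 in the median-restored fit, where 1 of the 4 was higher and 2 lower. Xist, the noncoding RNA of the inactive X chromosome, held at most 32.69 normalised counts in any library and was not tested. Erdr1, an erythroid differentiation regulator whose level varies among inbred strains, had 4.44 to 10.6 (median 8.03) in RiboTag and 28.2 to 296 (median 89.7) in sorted libraries, a difference of -3.16 ± 0.44 with no overlap. The mouse sex is not given in the labels, and the part of sex or strain in these differences was not tested.

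By the rule for naming genes, the 15 largest differences in each direction without overlap were taken from genes with a mean log2 value of at least 5. The 15 higher genes ran from 9.70 for S1pr1 to 15.1 for Ptgds. They included the astrocyte genes Agt (angiotensinogen), Slc1a3, Gja1 and Gjb6 (gap junction proteins), Acsbg1 (an acyl-CoA synthetase), Mlc1 and Gfap. Apod, an apolipoprotein of glia and fibroblasts, had 638 to 12400 (median 4285) in RiboTag and 0 to 5.24 (median 0) in sorted libraries, and Pltp (a phospholipid transfer protein), Vtn (vitronectin, of pericytes), Epas1 (a hypoxia factor of endothelium), S1pr1 (a sphingosine phosphate receptor) and Itih3 made up the rest with Avp. Of the 15, 9 were on a marker list of another cell type. That count carries no weight, because the genes were picked by their difference. The share of all tested genes on such lists was not counted. The 15 lower genes ran from -3.33 for Lcor, a transcriptional corepressor, to -5.39 for Fosb. They included Fos, Malat1, Snhg8, Snhg7 (-3.45 ± 0.37), the noncoding genes D7Ertd715e (-4.48 ± 0.30) and Dnm3os (-3.94 ± 0.73), the serotonin receptor gene Htr1f (-3.38 ± 0.52) and the homeobox gene Hdx (-4.27 ± 0.46). Lmbrd2 had 1.83 to 71.5 (median 38.3) in RiboTag and 232 to 1279 (median 764) in sorted libraries. Tex16, Xkr4, Adamts6 and Krtap17-1 completed the list. Without the glia-rich libraries Dnm3os differed by -2.76 and Adamts6 by -2.47, against -3.67 with them.

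The same contrast was then read in fasted mice of the same genotypes, in 10 RiboTag and 15 sorted libraries collected after an effective fast of 24 hours at the same ZTs, none of which enter the ad libitum comparison. There 29.5% of the 13923 genes were higher in RiboTag and 16.5% lower (limma-trend with ZT as a term). Across genes, which are not replicates, the 2 sets of differences had a Spearman rho of 0.72 and a Pearson r of 0.83. Of the genes higher in ad libitum mice 57.5% were also higher in fasted mice, and of those lower 39.6% were also lower; 240 genes were called in opposite directions. Of the genes called in fasted mice, 81.1% of the higher and 69.3% of the lower had the same call in ad libitum mice. Among the 10 RiboTag fasted libraries, ZT2 replicates 3 and 5 stood apart, with 23.8% and 23.9% of counts in their 10 highest genes, and values without them are given below.

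**Figure D4:**
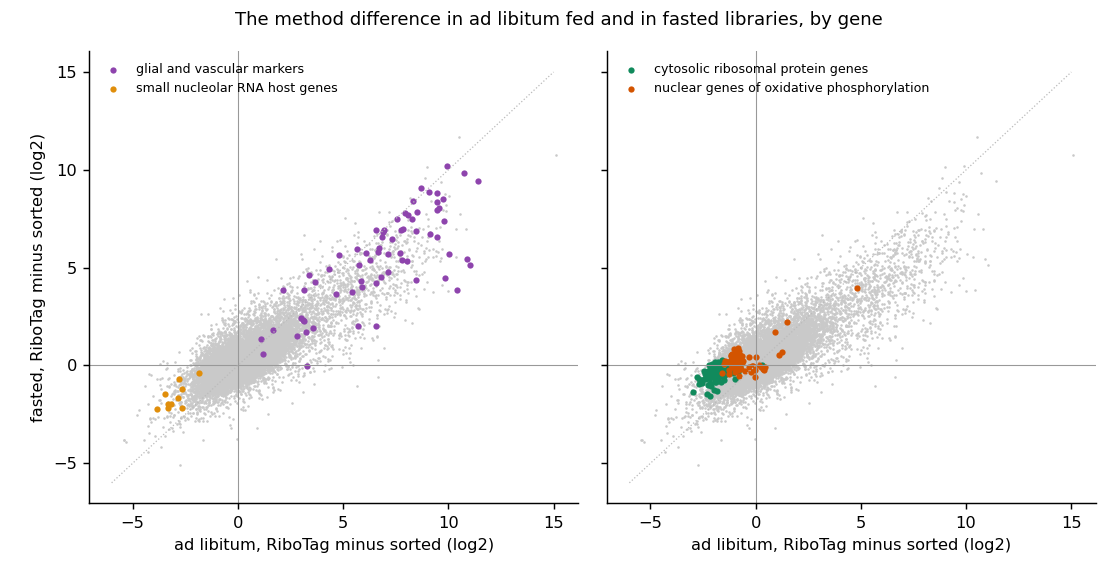
RiboTag minus sorted difference in fasted libraries against that in ad libitum libraries, log2(normalised count + 1), 1 point per tested gene in grey, with glial and vascular markers and small nucleolar RNA hosts in colour on the left and cytosolic ribosomal protein genes and nuclear genes of oxidative phosphorylation on the right. The dotted line marks equal differences. Glial and vascular markers lie high on both axes, and ribosomal protein genes lie lower on the ad libitum than on the fasted axis.

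Several gene groups had calls in the same direction in fasted mice. Agrp differed by -1.38 ± 0.54 (adjusted p = 0.0386), but by -0.33 with edgeR (adjusted p = 0.738). Npy differed by -1.20 ± 0.53 (adjusted p = 0.0677), and by -1.68 (adjusted p = 0.00434) without the 2 fasted libraries that stood apart. Of the AgRP markers 7 of 14 were lower and 0 higher (median -1.02), with 3 lower by edgeR (median -0.53) and 11 in the regressed fit (median -1.27). Gfap was higher by 7.36. All 16 astrocyte markers were higher (median 4.34), and 12 were by edgeR (median 2.39). These counts carry little weight, since the fasted fit took the genes of the ad libitum filter, which 11 of the 16 passed through RiboTag alone. Their sum overlapped between the methods in fasted mice, unlike in ad libitum mice. It ran from 25740 to 468000 in fasted RiboTag and from 4499 to 53060 in fasted sorted libraries. Microglial sums overlapped too (2383 to 121200 and 449.2 to 3648), while oligodendrocyte and endothelial sums did not. Nefl differed by 4.13, Camk2a by 2.87 and Tef by 2.34. Clk1 was lower (-2.77), as were 12 of the 17 nuclear-detained genes, and Fos was lower (-4.41). Of the small nucleolar RNA hosts 8 of 10 were lower (median -1.8), 10 without the 2 fasted libraries that stood apart (median -2.22), 4 by edgeR (median -1.26) and 5 of 8 in the regressed fit (median -1.48).

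Other groups did not. Ribosomal protein genes were lower for 20 of 82 in fasted mice (median -0.41) and for 68 without those 2 libraries (median -0.93); Rpl32 had 413 to 6255 (median 672) in fasted RiboTag and 546 to 2813 (median 2063) in fasted sorted libraries (-0.94 ± 0.34, adjusted p = 0.0266, but 0.149 by edgeR). Nuclear genes of oxidative phosphorylation had a median of 0.20 with 5 higher and 1 lower, and of -0.42 with 3 higher and 22 lower without them. Endoplasmic reticulum chaperones had 1 of 23 higher and 8 lower (median -0.31), and Hspa5 was lower in fasted RiboTag (-0.71 ± 0.23, adjusted p = 0.0148) where it was higher in ad libitum RiboTag, but did not pass without those 2 libraries (-0.53, adjusted p = 0.0536). Hspa1a was lower (-3.22, adjusted p = 2.6e-10), and of 15 heat shock genes 9 were lower and 1 higher. Immediate early genes had 5 of 23 higher and 10 lower (median -0.95), where 9 were higher and 7 lower in ad libitum mice. Arc was lower in fasted RiboTag (-1.12 ± 0.41, adjusted p = 0.0265, limma) where it was higher in ad libitum RiboTag, while Nr4a1 stayed higher (1.67). Lepr was lower in fasted RiboTag (-1.93 ± 0.31, adjusted p = 1.2e-05). Rn45s, lower in ad libitum RiboTag, was higher in fasted RiboTag (1.31 ± 0.54, adjusted p = 0.0479, limma), but was not called higher without those 2 libraries. Its share of counts was 0.0125% to 0.349% in fasted RiboTag and 0.0116% to 0.113% in fasted sorted libraries. Among the 15 named lower genes, Htr1f (0.11, adjusted p = 0.93) and Xkr4 (0.06, adjusted p = 0.954) did not pass in fasted mice by limma. Whether the method difference itself differed between the feeding states was not tested.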

How the data were processed

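Values are the authors' deposited signal: counts per gene after division by a size factor, as 1 table of 23337 genes by 80 libraries, with 0 sample columns not used. The submitters' processing notes name STAR 2.5.1, featureCounts (Subread), DESeq, DESeq2, R 3.5.1 and mm10, with no roles. Here limma 3.58.1 (limma-trend, R 4.3.3) was run on log2(value + 1), a scale that understates folds of low genes, with method and ZT as terms. The test took genes that reached 10 in 7 or more ad libitum libraries, with Benjamini-Hochberg adjustment over all of them. Reads recovered from the smallest steps (within 0.1 of a whole number) went into edgeR 4.0.16's quasi-likelihood test, without the sorted ZT2 replicate 4, whose step is irregular. The fits were tested on simulated data in which few genes differed. Since most genes differed here, that test does not bear on the scaling of these data. Replicate numbers do not pair libraries: their deviations correlated by -0.082 to 0.114, and the methods used different mice. Named genes are the 15 largest per direction without overlap and at a mean log2 of at least 5, plus members of 46 lists; genes and lists were chosen with earlier results of these data known. Gene class, length and GC content came from GENCODE by symbol (98.7% of tested genes), and start sequences from RefSeq.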

Additional observations from a re-analysis of the deposited data

Results flagged for a closer look

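A library was picked out where its value lay far from the others of its group of 4 or 6 by Dixon's criterion. Of 318 groups tested 57 gave such a value, where chance gives about 1 in 20, and the groups are not independent, since many genes mark the same cells.

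RiboTag ZT14 replicate 3, one of the glia-rich libraries, was high for the summed markers of astrocytes (161500), oligodendrocytes (111100), microglia (39010), other hypothalamic neurons (23930), pars tuberalis (1142) and erythroid cells (628.8), and low for the summed microRNA genes (177.5). The single genes that stood apart there were Agt (15220), Slc1a3 (14780), Itih3 (14150), Acsbg1 (9492), Mlc1 (9121), Csf1r (7623), Avp (7605), Kcnj10 (1783), Kcnj16 (1296), Tyrobp (1017) and Cga (812.5) as high values, and Hspa5 (19660) and Ddx3y (1443) as low ones. RiboTag ZT14 replicate 1 was high for summed endothelial markers (42910), Pltp (10030), Epas1 (5363) and Cldn5 (3189), and low for Dlg4 (290.2). RiboTag ZT14 replicate 4 was high for the summed small nucleolar RNA hosts (2414), Gas5 (1720), Meg3 (17460) and Tex16 (24.08), and replicate 2 for Peg13 (5740).

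Among the sorted ZT2 libraries, replicate 4, whose step is irregular, had 18060 genes above 0, more than the other 5, with high values of Epas1 (11.26), Kcna1 (18.22) and Rpph1 (116.8) and a low sum of the sex-linked genes (3540). Replicate 1 was high for astrocyte genes at a low level: Pltp (247.6), Itih3 (241.4), Agt (165.5), Gja1 (74.67), Gjb6 (65.96) and Kcnj16 (19.91), and also for Eif4b (1798). Replicate 3 held 99.61 normalised counts of Ptgds. Replicate 5 held 11180 of the summed pars tuberalis markers, of which Cga made up 10920, and a high Clk4 (2207). Replicate 6, the shallowest library, was high for Meg3 (11170), Kcnq1ot1 (6476), Tia1 (2767), Camk2a (1334), Tef (1026), Lepr (967.1), Hyou1 (705.3), Dlg4 (175.6) and summed erythroid markers (117). Replicate 2 was low for Arntl (395) and for the summed meningeal markers (10.15).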

How the results depend on the processing

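The alternatives were another pseudocount, other filters on low values, equal totals, median-of-ratios scaling, edgeR on recovered reads, library weights, no ZT term, a replicate block, the length and GC regression and each library left out; the median-restored fit and the fits without the 2 glia-rich or the 2 outlying fasted libraries were chosen after seeing the data. Against 5788 genes higher and 4018 lower, the regression gave 2942 and 6230, and the median-restored fit 2632 lower; every other setting stayed within 1.5 times. The median difference of all genes moved from 0.23 to 0.13 with median-of-ratios scaling and 0.11 with edgeR. Leaving out 1 library gave 9453 to 9918 called genes (5585 to 5845 higher and 3859 to 4073 lower), 7243 to 8524 at ZT2, 6256 to 7891 at ZT14, 5975 to 6757 in fasted mice and 0 to 2 for the interaction, the 2 without RiboTag ZT2 replicate 2. With a replicate block, which the collection numbers do not justify as pairs, 9567 genes were called; of the named genes Rpl7l1 no longer passed. Genes above 0 differed by 741.7 to 1175 on leaving out 1 library (p from 0.00102 to 0.127 by exact permutation, 968.6 and p = 0.0459 without RiboTag ZT2 replicate 3), and by 1305 (p = 0.00034) when genes were counted from a value of 10. The share of the 10 highest genes, which differed by -1.14 percentage points (exact permutation p = 0.197), turned to 0.808 without Rn45s (exact permutation p = 0.205), and ranged from -1.48 to -0.636 on leaving out 1 library; the share of Rn45s ranged from -2.34 to -1.82. Of 110 called genes among the 116 named, 87 were called in the same direction in every setting, and 12 named genes changed sign with a call. In the regression these were Arc (-0.081), Arntl (-0.43), Eef2 (-0.96), Eif4b (-0.25), Gad1 (-0.45), Luc7l (-0.059) and Rpl7l1 (-0.31), and in the median-restored fit Ddx3y (0.38), Eef2 (-0.28), Elavl4 (0.027), Kcnq1ot1 (0.37), Snap25 (0.59) and Snhg3 (0.56); the cause was not tested. Depth of 8.16 M reads or more, with a minimum value of 10, leaves genes under that level unread.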

Other observations

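Hsd11b2, which encodes the enzyme that inactivates glucocorticoids and is on no list used here, was noticed after its values were seen. It had 2068 to 3853 normalised counts in the 7 ad libitum RiboTag libraries and 0 to 8.46 in the 9 sorted ones, a log2 difference of 9.65 ± 0.37. The gene passed the filter through RiboTag alone, so that a p-value carries no weight and is not given. Over all feeding states it ran from 1048 to 3971 in the 17 AGRP-Cre;RiboTag libraries and from 0 to 23.3 in the 33 NPY::hrGFP libraries. The series also holds libraries of AGRP-Cre;BMAL1fx mice, titled as BMAL1 knockout, and of WT;BMAL1fx mice. Some of their titles name no treatment, the others are with or without leptin administration, and the collection times differ. Hsd11b2 ran from 11.2 to 4573 in 15 AGRP-Cre;BMAL1fx libraries, 1 of them under 100. It ran from 0 to 4628 in 15 WT;BMAL1fx libraries, 14 of them under 100. These values were not separated by treatment or time. Hsd11b2 (chr8:105518755-105523988) and Agrp (chr8:105566698-105637393) are neighbours on GRCm38. Agrp differed by -2.05 ± 0.25 in the ad libitum comparison.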
